A study of Mus musculus with 4 samples.

Results

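The oxidative phosphorylation genes are described here in N2a cells, a neuroblastoma line of the mouse, after knockdown of Arglu1 and treatment with a glucocorticoid. They were taken by gene symbol: genes whose names begin with Ndufa, Ndufb, Ndufc, Ndufs, Ndufv, Uqcr, Cox4 to Cox8 or Atp5, and Sdha to Sdhd. This rule takes 93 of the 22667 genes in the expression table, and 89 of the 93 had at least 75 reads summed over the 4 libraries. Beside subunits, the name rule takes 7 complex I assembly factors (Ndufaf1 to Ndufaf7), the supercomplex factor Cox7a2l, Atp5s, Atp5sl and a pseudogene, Atp5l-ps1. In counts by complex, the assembly factors stand with complex I, Cox7a2l with complex IV and the genes named Atp5 with complex V. The genes below 75 reads were Cox6b2, Cox8b and Cox8c, isoforms known from testis, heart or skeletal muscle, and Atp5l-ps1. They had between 0 and 2 reads in each library and enter no comparison.

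All cells had been transfected for 48 h with a lipid reagent, either with siArglu1, an siRNA that targets Arglu1, or with siControl, an siRNA without a target. For 4 h they then received dexamethasone (Dex) at 100 nM, a steroid that activates the glucocorticoid receptor, or its ethanol vehicle (Veh). Within a group the mRNA of 3 samples was combined, so that each of the 4 groups is 1 library: Veh and Dex of siControl, then Veh and Dex of siArglu1. Where 4 values follow each other without names below, they stand in this order. No pair of groups has replicates of its own, and a ratio between libraries carries no p-value.

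Oxidative phosphorylation is the last step of energy capture in mitochondria. Complex I takes electrons from NADH and complex II from succinate, complex III passes them to cytochrome c and complex IV to oxygen, and complexes I, III and IV pump protons across the inner membrane. Complex V, the ATP synthase, lets the protons back and makes ATP. A few subunits of complexes I, III, IV and V are encoded in mitochondrial DNA, whereas all of the genes described here are nuclear. Many of them encode very small proteins and have short mRNAs.

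Reads on genes ranged from 66074574 to 86541444 per library. Arglu1, the targeted gene, stood at 26.4% of its siControl level in vehicle and at 22.5% in Dex. Of 18 markers of neuronal and sympathoadrenal cells, 16 had at least 75 reads, and both others, Nefl and Nefm, are neurofilament genes. Their summed level in cRPKM (reads scaled to library size and to the kilobases that reads can map to) was 1847 and 1874 in siControl and 2417 and 2392 in siArglu1. Thus 10 of the 16 were higher by a log2 ratio of 0.32 or more in each knockdown pair (19.4% of all genes). Another 3 were lower by as much in vehicle (28.0% of all genes), and the same 3 in Dex (23.4%). The part of these markers in the results below was not tested. The summed level of 6 fibroblast markers lay between 0.74 and 1.07 cRPKM, that of 4 glial markers between 1.5 and 2.15 and that of 4 macrophage markers between 0.44 and 0.62, so that markers of other cell types were near 0. Ratios are given as log2 of TMM-scaled CPM. Beside them stand exact 95% intervals that cover the counting error of the reads only. In bulk RNA, fewer cells of a type and less RNA per cell cannot be told apart.

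NRF1 and the ETS factor GABP are transcription factors known for controlling nuclear genes of the respiratory chain. RefSeq promoters of the mouse build GRCm38.p6 were at hand for 72 of the 89 genes, Atp5sl among them under its newer name. The lines below show the 250 bases before the start, 5′ to 3′ on the strand of the gene, for 4 of the 7 genes with the highest knockdown ratios, and for Sdha, which was lower. They are shown because most genes of the set had ratios in one direction. Capitals mark an NRF1-type motif (GCGC, any 2 bases, GCGC) or an ETS-type motif (CCGGAAG), on either strand. Genes without an entry included Cox6a2, Sdhc and Uqcrq of the 7 highest, and Ndufa2, Ndufa4l2, Ndufaf6, Ndufb9, Ndufs1, Uqcrb, Uqcrc2, Cox4i1, Cox4i2, Cox6c, Atp5a1, Atp5f1 and Atp5s.

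Uqcr10 (chr11:4704345-4704594, minus strand): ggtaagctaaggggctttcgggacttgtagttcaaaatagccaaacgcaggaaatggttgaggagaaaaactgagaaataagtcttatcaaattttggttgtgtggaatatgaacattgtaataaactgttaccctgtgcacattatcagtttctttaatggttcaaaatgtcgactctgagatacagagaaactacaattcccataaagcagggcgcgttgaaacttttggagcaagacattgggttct
Ndufaf1 (chr2:119662835-119663084, minus strand): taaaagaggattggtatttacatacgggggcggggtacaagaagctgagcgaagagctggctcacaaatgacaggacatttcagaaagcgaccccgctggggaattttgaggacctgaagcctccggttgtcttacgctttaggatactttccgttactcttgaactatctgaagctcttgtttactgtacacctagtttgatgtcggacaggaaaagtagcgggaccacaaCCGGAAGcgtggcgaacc
Sdhd (chr9:50603850-50604099, minus strand): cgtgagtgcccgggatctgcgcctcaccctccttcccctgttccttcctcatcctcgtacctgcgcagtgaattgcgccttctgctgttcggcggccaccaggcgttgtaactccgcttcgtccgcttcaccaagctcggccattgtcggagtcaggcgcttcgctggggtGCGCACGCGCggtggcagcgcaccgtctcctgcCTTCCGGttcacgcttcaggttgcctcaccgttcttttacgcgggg
Atp5k (chr5:108434400-108434649, minus strand): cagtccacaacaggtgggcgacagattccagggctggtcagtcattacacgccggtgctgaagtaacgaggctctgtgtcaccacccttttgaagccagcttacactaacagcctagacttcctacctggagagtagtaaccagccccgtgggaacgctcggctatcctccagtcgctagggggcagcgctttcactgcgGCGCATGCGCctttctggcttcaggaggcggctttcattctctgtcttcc
Sdha (chr13:74350241-74350490, minus strand): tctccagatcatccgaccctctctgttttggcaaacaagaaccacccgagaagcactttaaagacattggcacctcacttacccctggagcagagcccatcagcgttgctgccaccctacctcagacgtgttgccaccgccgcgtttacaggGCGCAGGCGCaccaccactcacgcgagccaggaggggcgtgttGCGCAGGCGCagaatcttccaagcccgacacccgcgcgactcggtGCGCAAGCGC

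The NRF1-type motif was in 15 of the 72 promoters (20.8%), in 11% of 9753 promoters of genes with at least 75 reads and in 5.09% of all 27025. The ETS-type motif was in 12 promoters (16.7%), against 14.1% and 7.05%. Among the 5 shown, Sdhd held both motifs, Atp5k held the NRF1-type motif and Ndufaf1 the ETS-type motif. Uqcr10, with the largest knockdown ratio of the genes with an entry, had neither, and Sdha, which went the other way, had 3 NRF1-type matches. Matches were thus present in Sdha as well as in 3 of the 4 higher genes. Whether a match goes with the ratio was not tested over the 72 promoters. A CCAAT box (CCAAT) was found in 32 promoters (44.4%; 37.0% of the genes with reads), and the GC box GGGCGG in 27 (37.5%; 60.0%). No promoter of these genes held the full glucocorticoid response element (GAACA, any 3 bases, TGTTC), which was in 0.0205% of the promoters of genes with reads. A match is a run of letters, not a site in use, and matches of different motifs were counted without regard to overlap.

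These were abundant transcripts. Together they took 1.77% of all reads on genes in the Veh library of siControl (Clopper-Pearson interval 1.770% to 1.777%) and 1.797% in its Dex library (1.793% to 1.7996%). In siArglu1 they took 2.24% in Veh (2.232% to 2.239%) and 2.01% in Dex (2.005% to 2.011%). The share was thus higher in both siArglu1 libraries than in both siControl libraries, and highest in siArglu1 Veh. By length, as a share of summed cRPKM, it came to 3.23%, 3.26%, 3.81% and 3.47% in the same order of libraries. Complex V took the most reads, 0.854% of all reads without and 1.01% with knockdown in vehicle, and complex II the fewest, 0.0877% and 0.126%.

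Per length, the levels spread widely, from a mean of 1.45 cRPKM for Ndufa4l2 to 2065 for Atp5b. Atp5b, the catalytic beta subunit of ATP synthase, had the highest level with 1967 (Veh) and 1974 (Dex) cRPKM in siControl, and 2217 (Veh) and 2103 (Dex) in siArglu1. Next by mean cRPKM came Cox4i1 (1207), Ndufa4 (1065), which is now counted with complex IV, and Atp5g3 (1020), which makes the c subunit of the proton rotor. The median of the mean cRPKM was 375 for complex V, 238 for complex IV, 168 for complex III, 126 for complex II and 116 for complex I. The alpha and gamma subunits, Atp5a1 (577) and Atp5c1 (569), stood close to each other in mean cRPKM. The assembly factor Ndufaf1 (11.5), a chaperone of complex I, and Ndufaf7 (9.26), a methyltransferase of complex I, were at the low end. The plot of levels by complex shows the siArglu1 Veh library with the highest median in each complex.

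**Figure D1:**
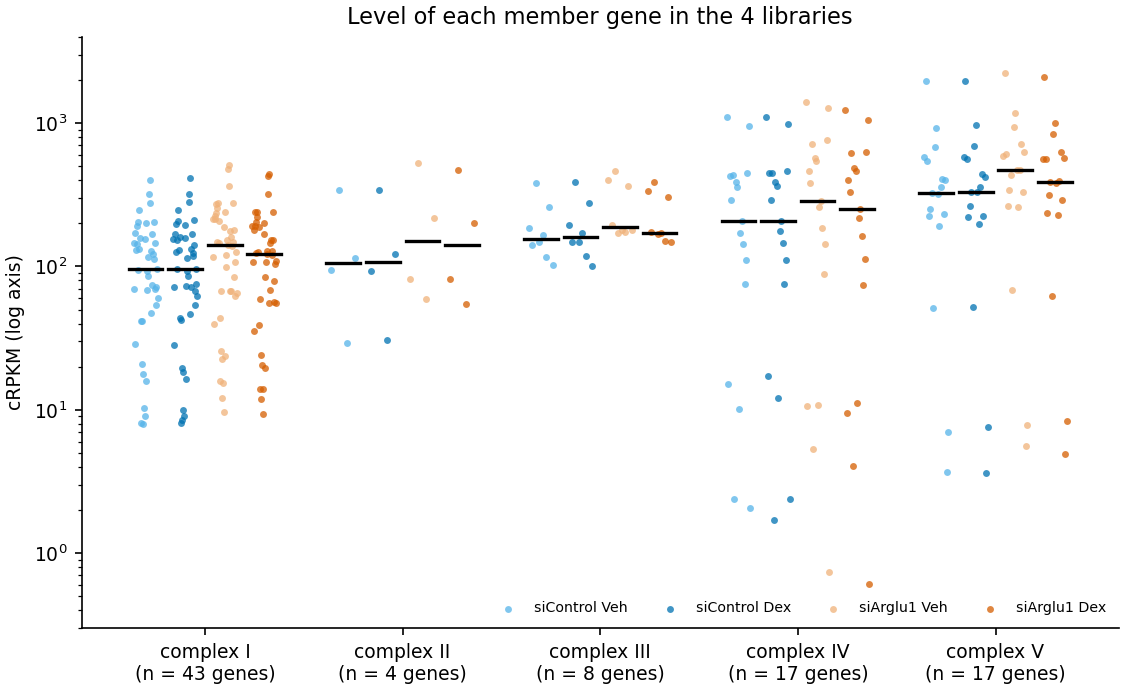
Level of each of the 89 genes (points, cRPKM, log axis) in the 4 libraries, by complex, with the median as a bar; each group is 1 library. Medians by complex are highest in siArglu1 Veh, and complexes IV and V reach above 1000 cRPKM.

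Where a subunit comes in isoforms, 1 form usually held nearly all of the level. Cox4i1 took 98.6% of the summed cRPKM of Cox4i1 and Cox4i2 in siControl Veh and 99.3% in siArglu1 Veh. Cox6a1 took between 99.3% and 99.6% of its pair, Cox6b1 at least 99.98% and Cox8a between 99.99% and 100%. Ndufa4 held between 99.8% and 99.9% against Ndufa4l2. Other sets were mixed. Cox7b2, described in testis, made up 34.1% of its pair with Cox7b in siControl Veh and 31.4% in siArglu1 Dex. Atp5g1, Atp5g2 and Atp5g3, which encode the same mature c subunit, held 3.10%, 40.9% and 55.99% in siControl Veh, and 3.12%, 42.8% and 54.1% in siArglu1 Veh. Among genes named Cox7a, Cox7a1, Cox7a2 and Cox7a2l held 2.61%, 43.8% and 53.6% in siControl Veh. Cox7a2l is the supercomplex factor and not an isoform of the subunit, and of Cox7a1 and Cox7a2 the latter held most.

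Knockdown of Arglu1 in vehicle went with higher levels of most of these genes. Of the 89, 84 had a log2 ratio above 0 for siArglu1 Veh over siControl Veh, where 50.3% of the 12497 genes compared did. Their median was 0.44 and that of all genes 0.00. The shift was broad but small. At a log2 ratio of 0.81 or more, 7 genes were higher, close to the 7.00% of all genes that pass this size, and 1 was lower, where 8.77% of all genes pass. At the smaller size of 0.32, 63 genes (26.8% of all genes pass) were higher and 2 lower (28.0%).

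In Dex, the same comparison used the other pair of libraries, which shares none with the vehicle pair. Here 72 of the 89 genes were above 0 (50.3% of all genes), and the median was 0.19 against 0.00 for all genes. At 0.81 or more, 2 genes were higher (6.19%) and 2 lower (5.93%), and at 0.32 or more 25 were higher (23.7%) and 2 lower (23.4%). All 25 were also past 0.32 in vehicle (19.4% of all genes passed in both pairs). The ratio in Dex was below that in vehicle for 87 of the 89 genes. The order of the genes was alike in the pairs, with a Spearman's rho of 0.94 over the 89 genes and of 0.89 over the other 12408, as a description over genes that share their libraries.

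**Figure D2:**
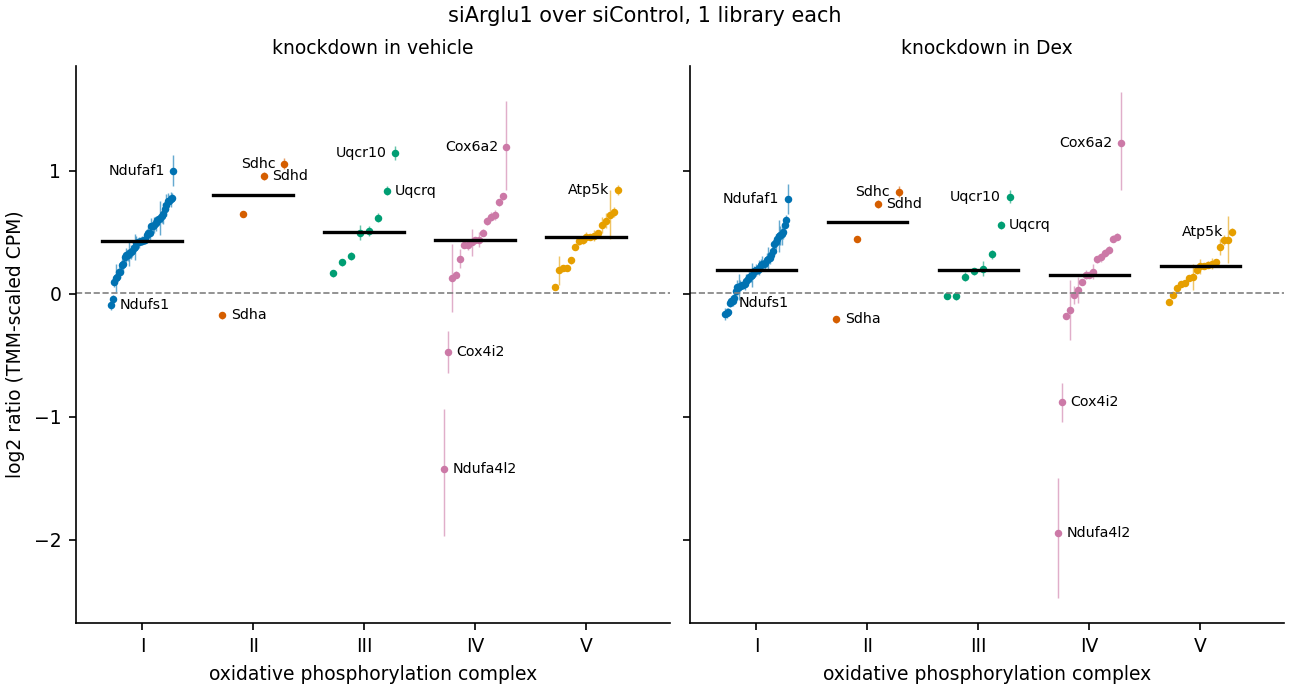
Log2 ratio of siArglu1 over siControl for each of the 89 genes, by complex, in vehicle and in Dex; points are single genes with their 95% counting interval, bars medians by complex and the dashed line the median of all genes. Most points lie above 0 in vehicle (84 of 89), and fewer in Dex (72), while Ndufa4l2 and Cox4i2 lie below 0 in both.

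Complex I had a median knockdown ratio of 0.43 in vehicle and 0.19 in Dex over 43 genes. Of them, 41 were above 0 in vehicle and 36 in Dex (50.3% of all genes in each pair). A ratio of 0.32 was reached by 31 in vehicle (26.8% of all genes) and 11 in Dex (23.7%). Ndufaf1 was the highest of them, with 750 (Veh) and 811 (Dex) reads in siControl, and 1477 (Veh) and 1687 (Dex) in siArglu1. Both siArglu1 libraries lay above both siControl libraries after scaling, with a ratio of 0.999 (0.87 to 1.13) in vehicle and 0.77 (0.65 to 0.89) in Dex. Ndufa10, an accessory subunit of the membrane arm, had 0.78 (0.74 to 0.82) and 0.56 (0.52 to 0.59). Ndufa13, also known as GRIM-19, had 0.76 (0.71 to 0.80) and 0.60 (0.56 to 0.64).

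The core subunits that carry the electron path of complex I stood lower, with a median of 0.24 in vehicle and 0.05 in Dex over 7 genes, against 0.43 and 0.18 over 29 accessory subunits. The core genes also had the longer mappable lengths, with a median of 1491 against 812 nt. Ndufv1, which binds the flavin and accepts electrons from NADH, was the highest core subunit in vehicle, with 7657, 8703, 11500 and 14461 reads. Its ratio was 0.61 in vehicle and 0.44 in Dex. Ndufs7, at the site of quinone reduction, had 0.31 and 0.23, and Ndufs8, an iron-sulfur subunit, 0.24 and 0.05. Ndufs1 went slightly the other way. This gene, which encodes the largest subunit with iron-sulfur clusters, had 12773, 13441, 11794 and 15598 reads in the same order of libraries, a ratio of -0.09 (-0.13 to -0.06) and -0.07 (-0.11 to -0.04). The assembly factors Ndufaf1 to Ndufaf7 had a median of 0.61 in vehicle and 0.47 in Dex, with the lowest ratios at Ndufaf7 (0.13 and 0.05).

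Complex II, which has nuclear subunits alone, gave both the highest median and a subunit that went the other way. The median of its 4 genes was 0.80 in vehicle and 0.59 in Dex. Sdhc and Sdhd, which anchor the enzyme in the membrane, stood highest. Sdhc had 5977 (Veh) and 6696 (Dex) reads in siControl, and 12218 (Veh) and 14531 (Dex) in siArglu1, a ratio of 1.05 (1.01 to 1.10) in vehicle and 0.83 (0.79 to 0.87) in Dex. Sdhd had 9437, 10705, 18020 and 21633 reads, a ratio of 0.96 (0.92 to 0.99) and 0.73 (0.69 to 0.76). The iron-sulfur subunit Sdhb had 24726, 26563, 38107 and 44199 reads, a ratio of 0.65 (0.62 to 0.67) and 0.45 (0.42 to 0.47). Of these anchor and iron-sulfur subunits, both siArglu1 libraries were above both siControl libraries. Sdha, the flavoprotein that oxidizes succinate, had 17822, 18936, 15522 and 20042 reads. It was lower in siArglu1, by a ratio of -0.18 (-0.21 to -0.15) in vehicle and -0.21 (-0.24 to -0.18) in Dex. In cRPKM, Sdha stood at 94.6 in siControl Veh and 81.8 in siArglu1 Veh, whereas Sdhc stood at 29.3 and 59.5.

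In complex III, all 8 genes were above 0 in vehicle and 6 in Dex (50.3% of all genes in each pair), with a median of 0.50 and 0.19. Uqcr10, a small subunit of the complex, had 3544 (Veh) and 3978 (Dex) reads in siControl, and 7690 (Veh) and 8397 (Dex) in siArglu1. Its ratio was 1.14 (1.08 to 1.20) in vehicle and 0.79 (0.73 to 0.84) in Dex. Both siArglu1 libraries were above both siControl libraries. Uqcrq, the ubiquinone-binding protein, had 0.84 (0.80 to 0.87) and 0.56 (0.52 to 0.59). Uqcrfs1, the Rieske iron-sulfur protein, had 0.62 (0.58 to 0.65) and 0.32 (0.28 to 0.35). The core proteins stood lower, Uqcrc1 at 0.25 and 0.18 and Uqcrc2 at 0.17 and -0.02. Uqcrb, with 0.31 and -0.02, was the other gene of this complex below 0 in Dex.

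Complex IV held the widest range, with ratios of -1.42 to 1.19 for the vehicle pair and -1.94 to 1.22 for the Dex pair, and the genes at both ends were isoforms with few reads. Its median was 0.44 and 0.15 over 17 genes. Cox6a2, the isoform known from heart and muscle, had 93 (Veh) and 72 (Dex) reads in siControl, and 210 (Veh) and 207 (Dex) in siArglu1, a ratio of 1.19 (0.84 to 1.57) and 1.22 (0.84 to 1.64). Ndufa4l2, known as a target of hypoxia signalling, had 124, 154, 45 and 48 reads, a ratio of -1.42 (-1.97 to -0.94) and -1.94 (-2.47 to -1.49). Cox4i2, the isoform known from lung and from low oxygen, had 676, 838, 480 and 554 reads, a ratio of -0.47 (-0.64 to -0.30) and -0.88 (-1.04 to -0.73). Cox6a2 was thus higher and Ndufa4l2 and Cox4i2 lower in both siArglu1 libraries than in both siControl libraries.

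The common isoforms were all higher in vehicle. Cox6a1 had 15017, 16665, 24734 and 28046 reads, a ratio of 0.74 in vehicle and 0.46 in Dex. Cox8a had a ratio of 0.79 and 0.44. Cox4i1, an early subunit of the complex, had 45701, 49219, 59062 and 66918 reads and a ratio of 0.39 (0.37 to 0.41) and 0.15 (0.14 to 0.17). Ndufa4 had 0.44 and 0.09. Cox5a, a subunit of the matrix side, had opposite signs in the pairs, with 0.15 (0.12 to 0.18) in vehicle and -0.18 (-0.21 to -0.15) in Dex. Cox7a1, another isoform of heart and muscle, had 211, 271, 227 and 302 reads, and a difference was not detectable at this depth (0.13, -0.15 to 0.41, in vehicle).

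All 15 subunits of complex V were above 0 in vehicle and 13 in Dex (50.3% of all genes in each pair), with a median of 0.46 and 0.22. Atp5s and Atp5sl, counted with the complex by name, were above 0 in both. Atp5k, the e subunit of the membrane part, stood highest with 8611 (Veh) and 10105 (Dex) reads in siControl, and 15202 (Veh) and 17481 (Dex) in siArglu1, a ratio of 0.84 (0.80 to 0.88) and 0.50 (0.47 to 0.54). Atp5o, which makes OSCP in the outer stalk, had 0.66 and 0.44, and Atp5s, named as coupling factor B, 0.64 and 0.44. The main subunits of the catalytic head stood lower. Atp5b had 242690, 262453, 275617 and 339810 reads, a ratio of 0.21 (0.20 to 0.21) and 0.08 (0.08 to 0.09). Atp5a1 had 92691, 100675, 94516 and 117623 reads, a ratio of 0.05 (0.04 to 0.06) and -0.06 (-0.08 to -0.05). Atp5c1 had 0.21 and -0.01. Over the 5 genes of the head the median was 0.21 in vehicle and 0.08 in Dex, and over the 10 of the membrane part and stalk 0.48 and 0.23, with a median mappable length of 1361 and 592 nt. The genes Atp5g1, Atp5g2 and Atp5g3 had similar ratios in vehicle (0.44, 0.49 and 0.38).

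Mappable length moved with these ratios. The mappable length behind a cRPKM, computed from reads and cRPKM, had a median of 868 nt for the 89 genes and of 2708 nt for all genes compared, and 59.6% of them lay under 1000 nt against 9.95% of all genes. It ranged from 163 to 4362 nt, with 5 genes under 300 nt. Many of these genes are known to have processed pseudogenes, and reads shared with them were not resolved here. For 43 genes the mappable length equalled the length of an annotated transcript minus 49 nt, to within 1 nt. For the others it did not, so mappable length is not always the length of an mRNA. Ndufa11, chosen after its values were seen, had 2612 nt, where its longest annotated transcript has 918 nt. The length classes and the trend on length below rest on mappable length. In the vehicle pair, 360 other genes under 500 nt had a median ratio of 0.27, against 0.53 for 22 oxidative phosphorylation genes. Between 500 and 1000 nt the medians were 0.35 (830 other genes) and 0.41 (31). They were 0.22 (2891) and 0.44 (25) between 1000 and 2000 nt, and -0.01 (5006) and 0.13 (9) between 2000 and 4000 nt. From 4000 nt on they were -0.31 (3308) and 0.53 (2). In each class the oxidative phosphorylation genes thus had the higher median in this pair, by the least between 500 and 1000 nt. In the Dex pair this class had a median of 0.15 against 0.16 for other genes, and in the other classes the oxidative phosphorylation genes had the higher median.

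With the trend on length over all genes removed, their median went from 0.44 to 0.15 in vehicle, with 68 of 89 above 0, and from 0.19 to 0.07 in Dex, with 54 above 0. The count at 0.81 or more in vehicle went from 7 to 3, which were Sdhc (1.09), Uqcr10 (0.83) and Cox6a2 (0.83). Complex II kept the highest median (0.54), followed by complexes IV (0.16), I (0.15), III (0.15) and V (0.13). Ndufa4l2 (-1.73) and Cox4i2 (-0.82) lay further below 0 and Sdha stayed at -0.17. Within the 89 genes alone, Spearman's rho of the ratio with mappable length was -0.22 in vehicle and -0.08 in Dex, against -0.40 and -0.23 over all genes compared. The part of length in the shift was not tested beyond this.

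**Figure D3:**
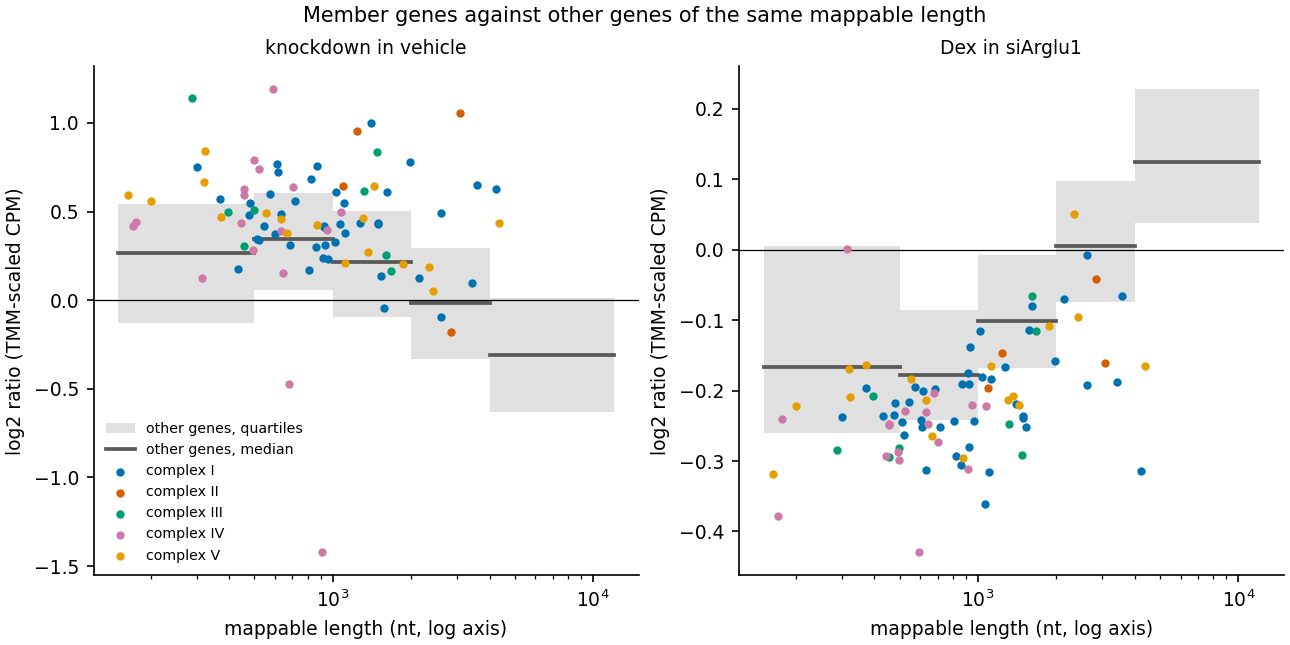
Log2 ratio of each of the 89 genes (points, coloured by complex) against mappable length (nt, log axis), for knockdown in vehicle and for Dex in siArglu1; grey bands and bars are quartiles and medians of other genes in 5 length classes. Other genes also lie above 0 for knockdown and below 0 for Dex in siArglu1 where they are short.

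With Dex for 4 h, these genes had ratios near 0 in siControl cells. Their median ratio of siControl Dex over siControl Veh was 0.03, against -0.00 for all genes, and 67 of 89 lay above 0 (48.3% of all genes). None reached 1 in either direction, a size that 0.464% of all genes passed. The farthest from 0 were isoforms with few reads, Cox6a2 (-0.46, -0.93 to -0.01) and Cox7a1 (0.26, -0.00 to 0.53). Among genes with many reads, Atp5k stood highest (0.13, 0.09 to 0.17).

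In siArglu1 cells, nearly all of them were a little lower with Dex. The median of siArglu1 Dex over siArglu1 Veh was -0.22, against -0.00 for all genes, and 87 of 89 lay below 0, while 49.7% of all genes lay above 0. None reached 1 in either direction (0.392% of all genes). At -0.32 or less there were 3, where 2.83% of all genes pass, namely Cox6a2, Cox7c and Ndufa12. Cox7c, a small subunit of complex IV chosen after its values were seen, had 1637 reads in siArglu1 Veh and 1674 in siArglu1 Dex, a ratio of -0.38 (-0.48 to -0.28), and 1246 and 1343 reads in siControl Veh and Dex, a ratio of 0.01 (-0.10 to 0.12). Ndufa12, an accessory subunit of complex I, had 15879 and 16430 reads in siArglu1, a ratio of -0.36 (-0.39 to -0.33), and 11967 and 12812 in siControl, a ratio of -0.00 (-0.04 to 0.03). Medians by complex lay between -0.26 (complex III) and -0.15 (complex II). Of the genes above 0, Atp5sl, a complex I assembly protein, had 0.05 (-0.06 to 0.16) and Cox7a1 0.00.

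The Dex pairs share no library, and 65 of 89 genes had opposite signs in them. Spearman's rho between the pairs was 0.04 over the 89 genes, as a description. For each gene, the difference between the Dex pairs equals that between the knockdown pairs, so it is no second result. The siArglu1 Veh library enters both knockdown in vehicle and Dex in siArglu1. In siArglu1 the ratio with Dex was lower for shorter genes, with a rho of 0.44 with mappable length over the 89 genes and of 0.54 over all genes. Other genes between 500 and 1000 nt had a median of -0.18 there, and the oxidative phosphorylation genes of this length -0.24. With the trend on length removed, the median of the 89 was -0.06 in siArglu1, with 10 above 0, and 0.01 in siControl. The part of length in this shift was not tested further.

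**Figure D4:**
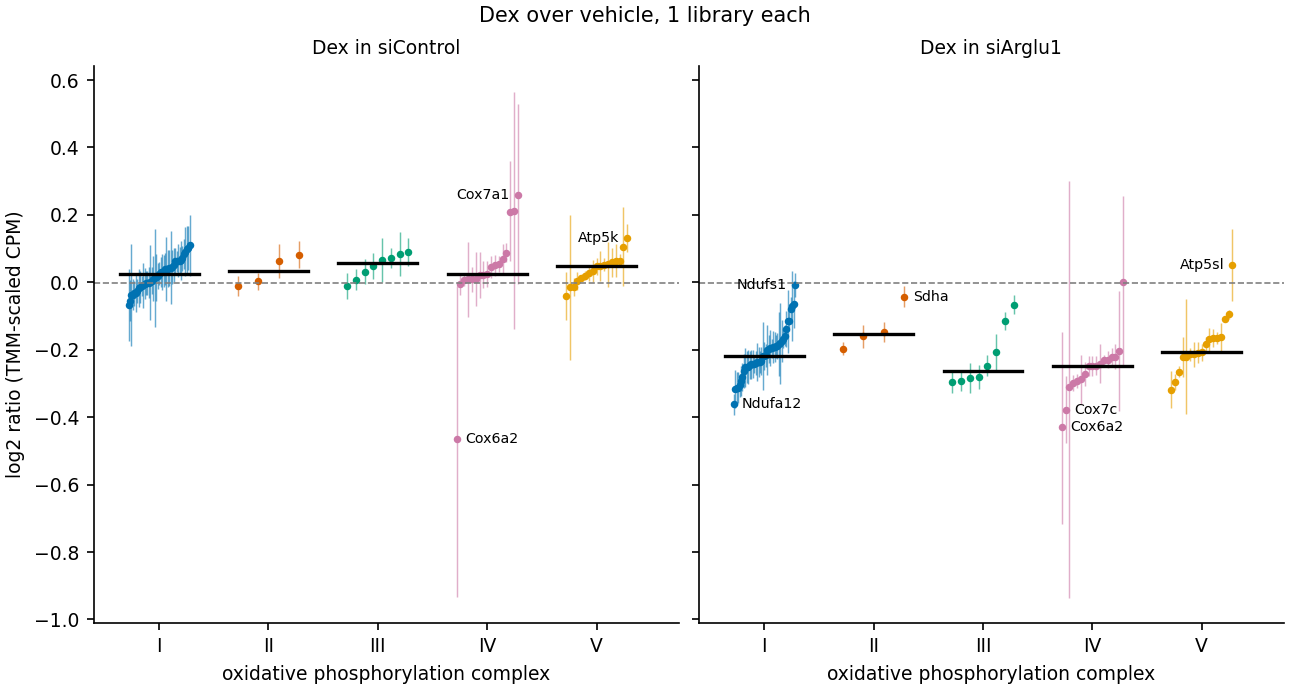
Log2 ratio of Dex over vehicle for each of the 89 genes, by complex, in siControl and in siArglu1; points are single genes with their 95% counting interval, bars medians by complex and the dashed line the median of all genes. Points lie around 0 in siControl (median 0.03) and mostly below 0 in siArglu1 (median -0.22).

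Related genes outside the name rule were read the same way, from lists of the pathway, and the examples named from them were chosen after their values were seen. A first list held 8 nuclear genes with other names, which were subunits, electron carriers and the ATP synthase inhibitor Atpif1 (0.21 and -0.02). All 8 were above 0 for knockdown in vehicle and 6 in Dex, with a median of 0.39 (0.16 in Dex). In vehicle 5 of them passed 0.32 (26.8% of all genes) and in Dex 0 (23.7%). Cyc1, the cytochrome c1 of complex III, had 0.44 and 0.29, and Cycs, cytochrome c itself, 0.37 and 0.15. Of 12 subunits encoded in mitochondrial DNA with enough reads, all 12 were above 0 in both pairs, with a median of 0.62 and 0.51, and 10 passed 0.32 in each pair (26.8% of all genes in vehicle and 23.7% in Dex). mt-Cytb, the cytochrome b of complex III, had 520540 (Veh) and 572973 (Dex) reads in siControl, and 809542 (Veh) and 1056200 (Dex) in siArglu1, a ratio of 0.66 and 0.59. The ratio of mt-Co1, the catalytic subunit of complex IV, was 0.16 and 0.17. With Dex in siArglu1 their median was -0.01, in contrast to the nuclear genes at -0.22, while in siControl it was 0.03 in both. This difference was not tested.

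Of 37 assembly factors outside the rule, 33 were found by symbol and 32 had enough reads. The median of these 32 was 0.36 in vehicle and 0.29 in Dex, and 17 and 14 passed 0.32, against the same shares of all genes. Among them were Cox11, a copper chaperone of complex IV (0.66 and 0.58), and Ecsit, an assembly factor of complex I (0.66 and 0.64). Over 17 genes of the citric acid cycle and of pyruvate dehydrogenase, which feeds it, the median was 0.20 and 0.16, with Idh3a, the catalytic subunit of isocitrate dehydrogenase, at -0.58 and -0.73. Glycolysis went the other way. Of 16 genes with enough reads, 9 stood at -0.32 or less in vehicle (28.0% of all genes) and 11 in Dex (23.4%), 1 stood at 0.32 or more (Pfkm), and the median was -0.39 and -0.53. Hk2, a hexokinase that starts glycolysis, had 8911, 10489, 4346 and 6912 reads, a ratio of -1.01 and -0.89. Of the genes counted lower in both pairs, Gapdh had 28 to 56 reads per library over a mappable length of 167 nt. Pgam1, also counted, had a mappable length of 155 nt.

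Regulators of mitochondrial biogenesis went both ways, with a median of -0.03 and -0.06 over 13 genes. In vehicle 2 stood at 0.32 or more (26.8% of all genes) and 2 at -0.32 or less (28.0%), and in Dex 1 (23.7%) and 2 (23.4%). Ppargc1b, a coactivator of the PGC-1 family, had 610, 762, 804 and 1355 reads, a ratio of 0.42 and 0.54. Tfb2m, a mitochondrial transcription factor with 60 to 110 reads, had 0.55 and -0.06. Sp1, a factor that binds GC boxes, had -0.78 and -0.36. Nrf1 itself had 2148, 2333, 2196 and 2830 reads and a ratio of 0.05 and -0.01. Gabpa, the DNA-binding subunit of GABP, had -0.53 and -0.37, and Ppargc1a, the coactivator PGC-1alpha, had between 6 and 9 reads in each library.

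Other sets of housekeeping genes also had medians above 0 with knockdown in vehicle. For knockdown in vehicle, the median was 0.39 over 76 mitochondrial ribosomal protein genes, 0.31 over 46 proteasome genes and 0.27 over 79 cytosolic ribosomal protein genes, against 0.44 here. In Dex, it was 0.20, 0.13 and 0.01, against 0.19, so that mitochondrial ribosomal proteins were level with the set. With the trend on length removed, the medians in vehicle were 0.19, 0.10 and -0.01, against 0.15. With Dex in siArglu1 the medians were -0.19, -0.18 and -0.21, against -0.22, which are close to each other. Differences between these sets were not tested.

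Splice events of these genes that differed between libraries were 2 or 3 in each comparison, too few to set the genes apart from all events. A PSI (percent spliced in) with enough coverage was at hand for 253 events in 73 of the genes, of which 72 were cassette exons, 95 alternative 3′ splice sites and 86 alternative 5′ splice sites. For knockdown in vehicle, a difference of 15 PSI or more was seen at 3 events of 2 genes, where 1.96% of all 57183 events passed. There were 2 events for knockdown in Dex (1.52%), 3 for Dex in siControl (0.717%) and 3 for Dex in siArglu1 (0.948%). Most of the exons and sites had a PSI near either end of the scale, and whether this bears on the counts was not tested. Of the 72 cassette exons, 43 had a PSI of 90 or more and 21 of 10 or less in all 4 libraries. The same held for 52 and 62 of 120 alternative 3′ sites and for 34 and 79 of 130 alternative 5′ sites.

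Ndufa12 gave 2 of the 3 events in vehicle. Its cassette exon of 88 nt, at chr10:93666033-93666120 in the coordinates of the deposited table (mm9 is the build in the submitters' notes), had a PSI of 12.8 (Veh) and 13.1 (Dex) in siControl, and 36.2 (Veh) and 25.9 (Dex) in siArglu1. Both siArglu1 libraries stood above both siControl libraries. An alternative 3′ splice site of the gene, which lies 15 nt from the other site, had 13.7, 12.5, 38.1 and 24.4 PSI on 81 to 102 junction reads, and its event uses the same upstream exon.

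Ndufaf1 gave the third, at an alternative 5′ splice site with 47, 49, 65 and 94 junction reads. Its PSI was 78.6 (Veh) and 53.1 (Dex) in siControl, and 60.0 (Veh) and 41.5 (Dex) in siArglu1. It was lower with knockdown in both pairs, with differences of -18.6 PSI in vehicle and -11.6 PSI in Dex. It was also lower with Dex in both, with differences of -25.6 PSI in siControl and -18.5 PSI in siArglu1. Of the genes past 0.81 for knockdown, Ndufaf1 was thus the 1 with an event past 15 PSI.

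The remaining events rested on 11 to 39 junction reads in each library. The Dex events were in Ndufs5, an accessory subunit of complex I (15.4, 36.4, 11.1 and 27.6 PSI), and Uqcr11, a small subunit of complex III (82.6, 100, 74.2 and 97.1 PSI for the more used site). Both were higher in Dex than in vehicle in siControl and in siArglu1. For knockdown in Dex they were in Atp5j2, the f subunit of ATP synthase (80.7, 90, 76.9 and 70 PSI), and Atp5s (9.09, 0, 4.76 and 19.1 PSI). Their differences in the vehicle pair were -3.76 and -4.33 PSI.

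**Figure D5:**
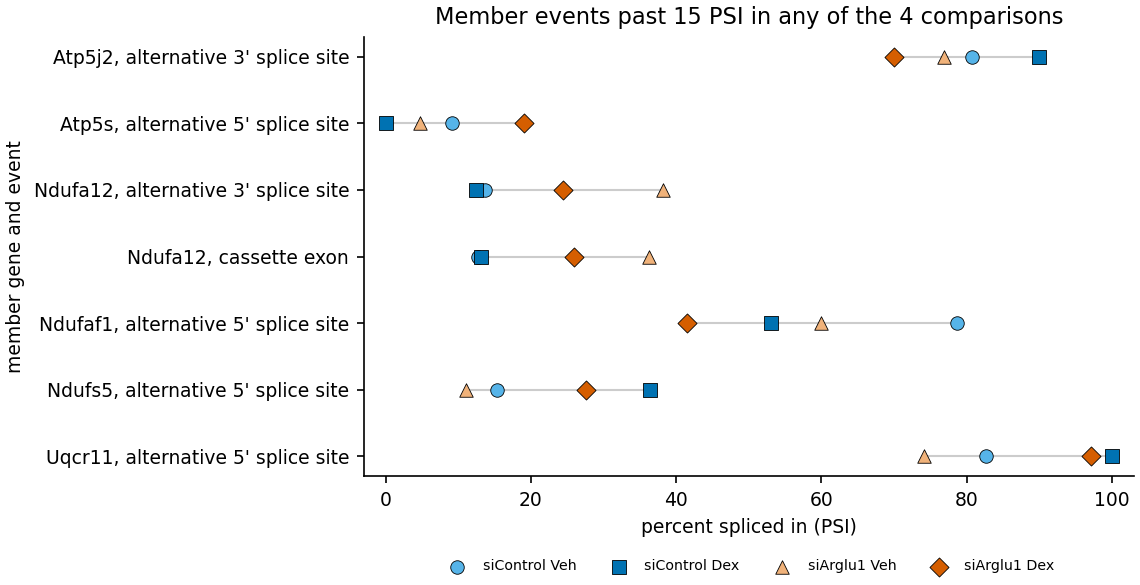
PSI (percent) in the 4 libraries for each event of the 89 genes with a difference of 15 PSI or more in any comparison; symbols are single libraries. Ndufa12 has both siArglu1 libraries above both siControl libraries, and Ndufaf1 is lowest in siArglu1 Dex.

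An additive model of knockdown and Dex over the 4 libraries, which has 1 residual degree of freedom and assumes that they act independently, called 66 of the 89 genes higher (30.8% of all genes) and 3 lower (30.9%) with knockdown at an adjusted p of 0.05 (edgeR's quasi-likelihood test with Benjamini-Hochberg adjustment). The 3 were Sdha, Cox4i2 and Ndufa4l2. For 87 of the 89 genes the knockdown ratio in Dex was below that in vehicle, which the assumption of independence does not allow for. The model holds no spread between replicates of a group, so these counts are a description only.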

How the data were processed

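mRNA of 4 groups was sequenced, 1 library each. The authors deposited a table of 22667 genes with raw read counts and with cRPKM, an RPKM corrected by the authors for mappable positions. The deposited splicing tables give PSI as a percent with a coverage score. The submitters' processing notes name Bowtie and mm9. Another 2 columns hold the authors' ratios and were not used.

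Counts were scaled with TMM factors (edgeR 4.0.16, R 4.3.3) over the 12497 genes with at least 75 reads summed, and log2 CPM taken with a prior count of 1. Thresholds of 0.81, 0.32 and 1 (log2) and of 15 PSI are rules of size. Splice events were kept where 4 libraries had a PSI, with at least 3 of them scored LOW or above. Several sites of an event counted as 1. Trends on mappable length and on GC percent (GENCODE M21, known for 98.6% of genes) were removed by lowess (span 0.3). DESeq2 1.42.0, other filters and deposited cRPKM were alternatives. Depth was 66074574 to 86541444 reads on genes. The calculations were tested on simulated data.

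Members and lists were chosen with earlier results of these data known. Genes named are those past a threshold, the 3 highest and 2 lowest of each complex by mean knockdown ratio, the core subunits, isoform sets, assembly factors Ndufaf1 to Ndufaf7 and genes with a splice event past 15 PSI. A gene that this rule takes is not reported here by name.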

Additional observations from a re-analysis of the deposited data

Results flagged for a closer look

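The response to Dex of the 89 genes lay near 0 in siControl and below 0 in siArglu1. Its median was 0.03 in siControl and -0.22 in siArglu1, a difference of -0.25 on the log2 scale. With the trend on mappable length removed, the medians were 0.014 and -0.063. In siArglu1, the medians of mitochondrial ribosomal, cytosolic ribosomal and proteasome genes were -0.19, -0.21 and -0.18. Each group is 1 library with its own vehicle library, and the difference was not tested. The siArglu1 Veh library also enters knockdown in vehicle. The difference is thus the same contrast as the lower knockdown ratios in Dex, not a second result.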

How the results depend on the processing

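Of 68 alternative values, 49 kept their direction and about their size. Among these, the count at 0.81 or more in vehicle (7 in the main setting) was 5 by total reads or deposited cRPKM. It was 6 with the trend on GC removed. In Dex (2 in the main setting) it was 3 with no read minimum or with the trend on GC removed. Removing the trend on length moved the medians to 0.15 (knockdown in vehicle), 0.075 (knockdown in Dex) and -0.063 (Dex in siArglu1), and the count at 0.81 or more in vehicle to 3. Counts for knockdown in vehicle were 63 at a threshold of 0.32, 3 at 1 and 66 by the additive model, and for knockdown in Dex 25 and 1. Without Atp5b, Atp5a1 and Cox4i1, the members with the most reads, the share of reads was 1.20%, 1.22%, 1.59% and 1.40%, first for siControl and then for siArglu1, each in Veh and Dex. By summed cRPKM it was 3.23%, 3.26%, 3.81% and 3.47%. The order of the libraries was the same. Splice events in vehicle were 24 with no coverage minimum and 0 at 25 PSI. Scaling by DESeq2 size factors or total reads, other read filters, a prior count of 5, the deposited cRPKM, removal of the trend on GC and leaving out assembly factors moved no median beyond the counting error of a typical gene. Depth limits Cox6a2, Ndufa4l2 and Cox7a1. The additive model blocks knockdown by treatment. Groups of 1 library hold no replicates to pair or leave out.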
